A study of Homo sapiens with 4 samples.

Results

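Interferon-stimulated genes and nucleic acid sensors were examined in a pair of leukaemia cell lines, one sensitive and one resistant to imatinib. The genes were chosen by name as a list of 50 symbols that covers interferon receptors, interferon regulatory factors (IRFs), sensors of foreign RNA and DNA, and antiviral effectors. The expression table held 48 of them among its 32673 genes, whereas ZBP1 and MX2 were not analysed here. The rule that picks them uses names alone.

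TF1 is a human erythroleukaemia cell line, and TF1-BA cells are TF1 cells infected with a retrovirus carrying p210 BCR-ABL, the fusion kinase of chronic myeloid leukaemia (CML) that imatinib inhibits. TF1-BAR cells, the resistant line, were derived from them under long continuous imatinib. Both lines therefore carry BCR-ABL, and both were grown in RPMI-1640 medium, 2 ng/ml GM-CSF and 10% serum according to the labels, with 2 μM imatinib in the TF1-BAR cultures. The methods of the study state a different concentration of GM-CSF. RNA of 2 libraries per line was sequenced, from 10000000 cells each. Each condition is thus represented by 1 cell line. In the labels the titles of the TF1-BAR libraries also name a vector, so that resistance, the presence of the drug and any vector cannot be told apart. Nothing states that the 2 libraries of a line came from independent cultures, and p-values measure only the spread between these libraries.

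Interferons bind cell surface receptors whose kinases phosphorylate STAT proteins. A complex that holds STAT2 and IRF9 binds the interferon-stimulated response element (ISRE) in the promoters of antiviral genes, whereas the gamma-activated site (GAS) is the element of the type II response. RNA sensors such as RIG-I signal through the mitochondrial adaptor MAVS, and cyclic GMP-AMP made by the DNA sensor cGAS activates STING, both of which lead to IRF3, IRF7 and new interferon. Many genes of this network keep a basal level without added interferon.

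The ISRE is the sequence that links many of these genes, and the promoter stretches that hold it are shown here for members at different levels. RefSeq promoter windows of GRCh38.p14, from 250 bases before to 50 bases after a gene's start, were found for 36 of the 48 genes. The ISRE, taken as GAAA, any 2 bases and GAAA again and searched on both strands, was in the windows of 22 of these 36 genes (61.1%), against 4.38% of all 27305 genes and 3.57% of all 35116 windows. The GAS motif TTCNNNGAA was in 9 of 36 (25.0%), against 9.38% of all genes. No window was found for IFNAR2, IRF2, IRF3, IRF7, DHX58, TMEM173, IFIT2, IFITM2, OAS2, OASL, GBP2 and USP18. Each line gives 30 bases from 5′ to 3′ on the gene's strand, with the ISRE match or its reverse complement in capitals. The first pair was higher in TF1-BAR cells, the next pair was lower, IFITM3 and IFIT1 did not pass the test, and OAS3 was below the level needed for testing.
ISG15: gcctcggGAAAGGGAAACCGAAActgaagc
IFI44: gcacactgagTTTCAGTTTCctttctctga
IFI6: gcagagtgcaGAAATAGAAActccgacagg
BST2: tttctggGAAACTGAAACTGAAAacctaat
IFITM3: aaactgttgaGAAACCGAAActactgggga
IFIT1: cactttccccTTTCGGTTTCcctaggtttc
OAS3: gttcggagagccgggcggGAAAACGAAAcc

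These stretches lie at chr1:1013377-1013406 (ISG15, plus strand), chr1:78649761-78649790 (IFI44, plus), chr1:27672266-27672295 (IFI6, minus), chr19:17405738-17405767 (BST2, minus), chr11:320876-320905 (IFITM3, minus), chr10:89392510-89392539 (IFIT1, plus) and chr12:112938444-112938473 (OAS3, plus). In ISG15 and BST2, 2 overlapping matches form one longer run. ISG15 holds it 113 to 98 bases before the start, and OAS3 only 12 to 3 bases before it. A match was found in 2 of 3 members higher in TF1-BAR cells with a window, 3 of 5 lower ones, 10 of 20 that did not pass the test, and 7 of 8 below the level needed for testing. Members with the motif were thus found in every class of result, and a match is a description of letters, not of binding.

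Values are FPKM, fragments scaled to gene length and library size, as the authors deposited them. Library sizes worked back from these values were between 15465497 and 18042299 fragments, the replicates of a line correlated with r of 0.983 (TF1-BA) and 0.979 (TF1-BAR) across genes, and they differed by more than counting noise (chi-square per degree of freedom of 4.14 and 7.19). All 8 markers of TF1 cells, among them CD34, KIT, CSF2RB and GATA1, were expressed. Their levels summed to 260 and 252 FPKM in TF1-BA and 358 and 379 FPKM in TF1-BAR libraries. CD34, KIT, CD33 and TAL1 were higher in TF1-BAR cells, at log2 fold changes of 1.17, 1.12, 0.87 and 0.76 (limma adjusted p of 0.00409, 0.00409, 0.00555 and 0.00976). CSF2RA, CSF2RB, EPOR and GATA1 did not pass. The 17 listed markers of other cell types summed to 23.7 and 25.7 FPKM in TF1-BA and 12.9 and 13.7 FPKM in TF1-BAR libraries, and none was at 0 in all 4 libraries. CD3D alone was at 19.2 and 20.7 against 5.74 and 6.36 FPKM, while the defining T cell markers CD3E, CD2 and CD8A did not exceed 0.411 FPKM. The B cell marker CD79A was at 1.84 and 2.19 against 3.55 and 3.15 FPKM. The monocyte marker CSF1R was at 0.215 and 0.326 against 1.34 and 1.32 FPKM. CD3D, CD79A and CSF1R passed the limma test described next (adjusted p of 0.00282, 0.0260 and 0.0124). Mitochondrial transcripts took 10.25% and 10.09% of the TF1-BA fragments and 8.07% and 7.55% of the TF1-BAR fragments. The part of these differences in the results was not tested, and in bulk RNA fewer cells of a type cannot be told apart from less RNA per cell.

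Of the 48 genes, 38 had a mean of at least 0.5 FPKM over the 4 libraries and were tested, together with all other genes at that level, by limma on log2(FPKM + 0.5). Fold changes are on this log2 scale, TF1-BAR minus TF1-BA, which understates changes of low genes. At an adjusted p under 0.05, 11 of the 38 genes (28.9%) passed, against 26.9% of all 15519 genes tested, so that the share was close to the background. MAVS, IFI44, ISG15 and TMEM173 were higher in TF1-BAR cells (10.5%, background 16.3%). IFI35, GBP4, GBP2, DHX58, IFI6, IFNAR1 and BST2 were lower (18.4%, background 10.5%). After rescaling to TPM, 5 were higher and 5 lower, with a background of 20.5% higher and 8.72% lower. By limma, 0 of the 38 also reached an absolute log2 fold change of 1, which the study's methods require, against 4.75% of all genes (3.05% higher and 1.69% lower). By limma voom on recovered fragments 2 did (IFI35 lower and XAF1 higher), against 4.94% of all genes higher and 2.47% lower. An unadjusted limma p under 0.05 was found for 19 of the 38, and for 42.2% of all genes.

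The list did not move as a block. Its median log2 fold change was −0.007, against 0.0658 for all genes tested, with 19 genes above 0 and 19 below. The libraries of the lines did not overlap for 16 genes with TF1-BAR above and 16 with TF1-BAR below, where the background over all genes was 40.9% and 28.4% (69.3% in either direction). These calls rest on few libraries. Without TF1-BA replicate 1, and likewise without TF1-BA replicate 2, 0 of the 38 genes passed, when limma called 144 and 42 of all genes. Leaving out either TF1-BAR library also lost calls, in the list and over all genes tested. A permutation test of 2 against 2 libraries cannot give an exact p below 0.333 and was not used.

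**Figure D1:**
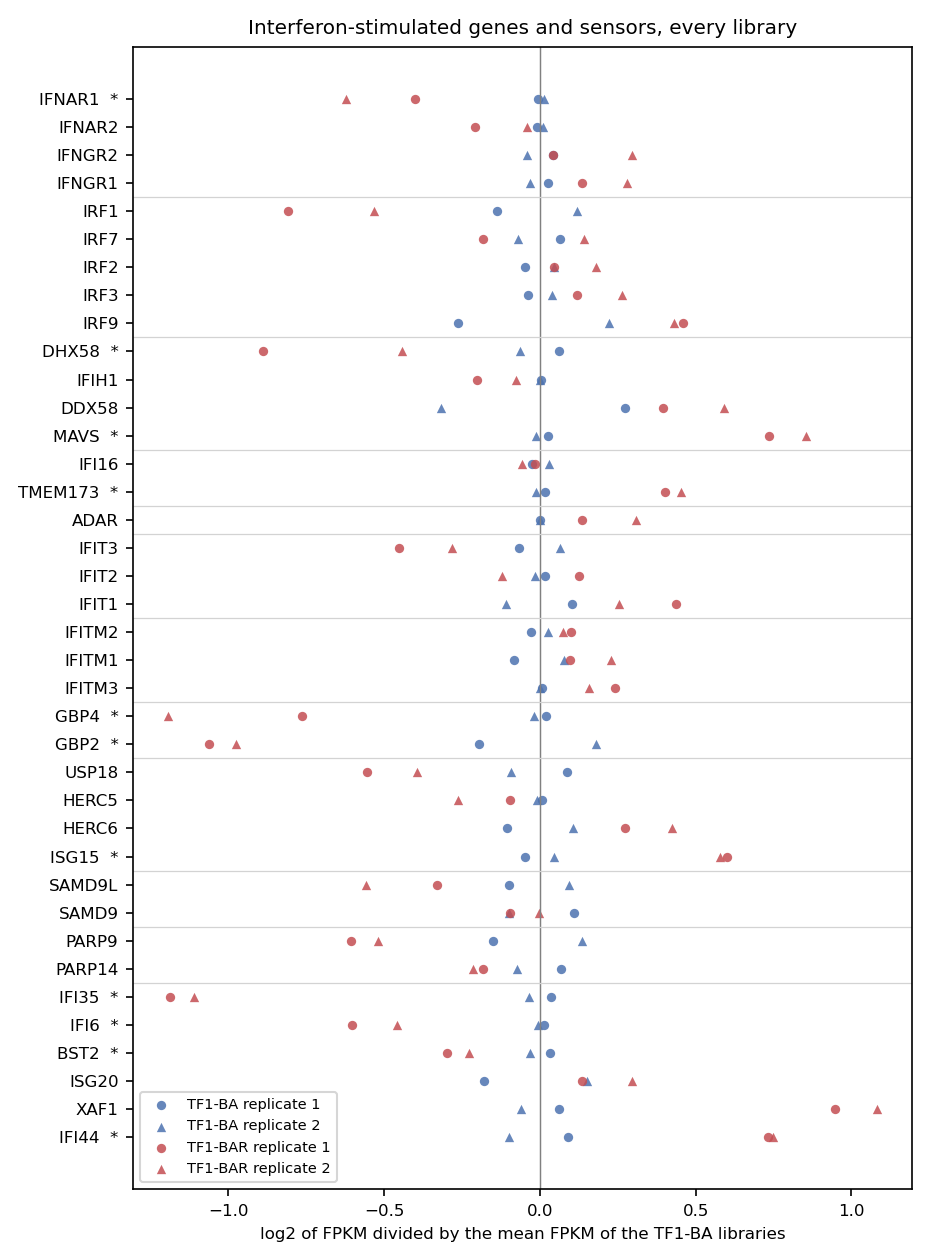
Each symbol is 1 library, placed by the log2 of its FPKM over the mean FPKM of the TF1-BA libraries, for the 38 genes tested (blue, TF1-BA; red, TF1-BAR; circles, replicate 1; triangles, replicate 2), ordered by role with grey lines between roles. Asterisks mark the 11 genes with a limma adjusted p under 0.05, of which GBP4 and IFI35 lie farthest to the left and MAVS and IFI44 to the right.

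Levels spanned a wide range. Over all 48 genes the FPKM summed to 878 and 874 in TF1-BA libraries and to 899 and 912 in TF1-BAR libraries, and IFITM3 and BST2 alone made up 54.8% to 57.7% of that sum. Both encode membrane proteins that restrict enveloped viruses, IFITM3 at entry and BST2 (tetherin) at release. At the other end, 10 genes stayed below the mean of 0.5 FPKM.

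Among the receptors, IFNAR1, the chain of the type I interferon receptor that binds the kinase TYK2, was lower in TF1-BAR cells. IFNAR1 (ENSG00000142166, chr21:33324477-33359862) stood at 19.3 and 19.6 FPKM in the TF1-BA and at 14.7 and 12.6 FPKM in the TF1-BAR libraries. Both TF1-BAR libraries lay below both TF1-BA libraries, and the mean went from 19.4 ± 0.206 to 13.6 ± 1.51 FPKM (SD, n = 2). Its log2 fold change was −0.50 (SE 0.0944, limma adjusted p = 0.0226, range 0.000749 to 0.140 over 15 alternatives).

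The partner chain IFNAR2 was at 7.23 and 7.32 FPKM in TF1-BA and at 6.30 and 7.07 FPKM in TF1-BAR libraries (log2 fold change −0.12, limma adjusted p = 0.365). The type II receptor chains IFNGR1, which binds interferon gamma, and IFNGR2, which completes the signalling complex, had log2 fold changes of 0.20 and 0.16 and did not pass. IFNGR1 was the most abundant chain, at 32.7 to 40.5 FPKM. IFNGR2 overlaps TMEM50B on the opposite strand, and the library kit does not mark strand, so that reads of the pair cannot be told apart where they overlap.

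All 5 IRFs reached the level for testing, and none passed the test. IRF3, the factor that sensors activate first, was the most abundant of them, with 14.5 and 15.3 FPKM in TF1-BA and 16.2 and 17.9 FPKM in TF1-BAR libraries (log2 fold change 0.19, limma adjusted p = 0.142), although BCL2L12 overlaps it on the opposite strand. IRF1, a factor induced by interferon gamma, was at 1.59 and 1.90 FPKM in TF1-BA and at 1.00 and 1.21 FPKM in TF1-BAR libraries. The libraries of IRF1 did not overlap, but its adjusted p by limma was 0.0714 at a log2 fold change of −0.48. IRF1 passed under quantile normalization and by limma voom, which gave an adjusted p of 0.00619.

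IRF7, the amplifier of type I interferon induction, was at 5.19 and 4.72 FPKM in TF1-BA and at 4.37 and 5.47 FPKM in TF1-BAR libraries, so that the lines overlapped. Its log2 fold change of −0.02 turned to 0.05 after rescaling to TPM. IRF2, a factor that can compete with IRF1, had a log2 fold change of 0.11. IRF9, the DNA-binding part of the complex with STAT2, was the lowest of the group at 0.365 to 0.602 FPKM.

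Among RNA sensors and their adaptor, MAVS was higher and DHX58 lower in TF1-BAR cells, while RIG-I and MDA5 did not pass. MAVS (ENSG00000088888, chr20:3846799-3876123) was at 10.6 and 10.3 FPKM in TF1-BA and at 17.3 and 18.8 FPKM in TF1-BAR libraries. Its lines were well apart, with means of 10.4 ± 0.215 and 18 ± 1.04 FPKM (SD, n = 2). The log2 fold change of MAVS was 0.76 (SE 0.0758, limma adjusted p = 0.0067, range 1.2e-05 to 0.0714 over 15 alternatives). MAVS lies on chromosome 20, where the median of the 440 genes tested was 0.39. With the median of each chromosome subtracted, the log2 fold change of MAVS was 0.37 (limma adjusted p = 0.0316).

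DHX58, which encodes the sensor LGP2 that lacks signalling domains and modulates the others (ENSG00000108771, chr17:42101404-42112733), was at 4.11 and 3.77 FPKM in TF1-BA and at 2.13 and 2.90 FPKM in TF1-BAR libraries. The lines did not overlap, with the TF1-BAR libraries farther from each other than the TF1-BA libraries. The log2 fold change was −0.57 (SE 0.151), and its limma adjusted p of 0.0494 was at the threshold. It was past the threshold in 6 of 15 alternatives, and the range over them was 0.00551 to 0.228.

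DDX58, which encodes RIG-I, the sensor of RNA with a 5′ triphosphate, was at 1.34 and 0.891 FPKM in TF1-BA and at 1.46 and 1.67 FPKM in TF1-BAR libraries (log2 fold change 0.37, limma adjusted p = 0.198). IFIH1, which encodes MDA5, the sensor of long double-stranded RNA, was at 2.94 and 2.93 FPKM in TF1-BA and at 2.55 and 2.78 FPKM in TF1-BAR libraries (log2 fold change −0.12, limma adjusted p = 0.397). The TF1-BA replicates of DDX58 lay farther apart than their replicate 1 lay from either TF1-BAR library. ADAR, the editor that marks cellular double-stranded RNA as self, was abundant at 30.2 FPKM in both TF1-BA libraries and at 33.2 and 37.4 FPKM in TF1-BAR libraries, with a limma adjusted p of 0.10 that was under 0.05 in 2 of 15 alternatives.

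On the DNA sensing side, TMEM173 was higher in TF1-BAR cells. TMEM173, which encodes STING (ENSG00000184584, chr5:139475534-139482935), was at 37.4 and 36.7 FPKM in TF1-BA and at 48.9 and 50.7 FPKM in TF1-BAR libraries. Replicates lay close together and the lines did not overlap (37.0 ± 0.491 and 49.8 ± 1.25 FPKM, SD, n = 2). The log2 fold change was 0.42 (SE 0.0594, limma adjusted p = 0.0119, range 0.000829 to 0.114 over 15 alternatives). IFI16, a nuclear sensor of DNA, was at 3.67 to 3.90 FPKM in all 4 libraries, with overlapping lines and a log2 fold change of −0.03, which turned to 0.03 in TPM.

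**Figure D2:**
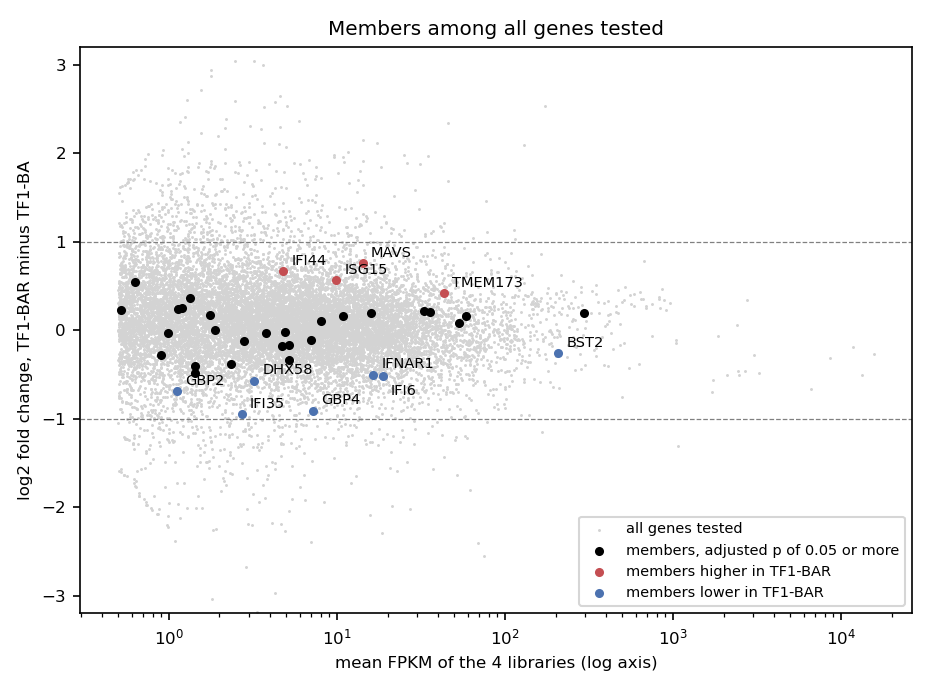
Log2 fold change (TF1-BAR minus TF1-BA) is plotted against mean FPKM of the 4 libraries on a log axis for the genes tested, with 14 genes beyond ±3.2 not drawn. The 38 members are drawn large (red, higher; blue, lower; black, not past the limma threshold), and all of them lie between the dashed lines at log2 fold changes of −1 and 1.

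The ISG15 system consists of the ubiquitin-like protein ISG15, the ligases that attach it (HERC5, and its relative HERC6) and USP18, which removes it and also restrains the receptor. ISG15 (ENSG00000187608, chr1:1001138-1014541) was at 7.65 and 8.17 FPKM in TF1-BA and at 12.0 and 11.8 FPKM in TF1-BAR libraries. The TF1-BAR libraries lay together above both TF1-BA libraries (7.91 ± 0.367 and 11.9 ± 0.118 FPKM, SD, n = 2). The log2 fold change was 0.56 (SE 0.0747, limma adjusted p = 0.0109, range 0.00738 to 0.0980 over 15 alternatives).

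The partners of ISG15 did not pass. USP18 was at 2.89 and 2.55 FPKM in TF1-BA and at 1.85 and 2.07 FPKM in TF1-BAR libraries, a log2 fold change of −0.39 with a limma adjusted p of 0.0672 that fell under 0.05 in 2 of 15 alternatives. HERC5 had a log2 fold change of −0.16 and HERC6 of 0.25, with limma adjusted p of 0.238 and 0.253.

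Guanylate-binding proteins (GBPs) are large GTPases, mainly induced by interferon gamma, that act on vacuoles of intracellular pathogens. Of the 3 GBPs of the list, GBP4 and GBP2 were tested and were lower in TF1-BAR cells. GBP4 (ENSG00000162654, chr1:89181148-89198932) was at 9.61 and 9.36 FPKM in TF1-BA and at 5.58 and 4.15 FPKM in TF1-BAR libraries. The TF1-BAR libraries were both far below the TF1-BA pair, with 9.48 ± 0.174 and 4.87 ± 1.01 FPKM (SD, n = 2), for a log2 fold change of −0.91 (SE 0.143, limma adjusted p = 0.0152, range 5.7e-05 to 0.103 over 15 alternatives).

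GBP2 (ENSG00000162645, chr1:89106132-89150456) was lower in level, at 1.31 and 1.70 FPKM in TF1-BA and at 0.718 and 0.763 FPKM in TF1-BAR libraries. The lines did not overlap, and the log2 fold change was −0.68 (SE 0.165, limma adjusted p = 0.0394, range 0.00142 to 0.178 over 15 alternatives). With the replicate numbers as a block the adjusted p of GBP2 was 0.0508, and it was past the threshold in 9 of 15 alternatives. GBP1 was not tested, with 16 and 8 fragments in TF1-BA and 5 and 9 fragments in TF1-BAR libraries. GBP3 and GBP5, which are not in the list and were chosen after their values were seen, had log2 fold changes of −0.68 and −0.22 and did not pass (limma adjusted p of 0.0543 and 0.201). The GBP genes are near copies of each other, and how the authors' counting divided shared reads among them is not stated.

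The IFIT family, whose proteins bind viral RNA, lies in a cluster on chromosome 10, and none of its 3 tested genes passed. IFIT3 was at 5.58 and 6.12 FPKM in TF1-BA and at 4.28 and 4.81 FPKM in TF1-BAR libraries (log2 fold change −0.33, limma adjusted p = 0.0643, under 0.05 in 1 of 15 alternatives). IFIT1 was at 1.07 and 0.925 FPKM in TF1-BA and at 1.35 and 1.19 FPKM in TF1-BAR libraries (0.24, limma adjusted p = 0.277), and IFIT2 at 1.71 to 2.03 FPKM with overlapping lines (0.00, limma adjusted p = 0.991, −0.02 under upper-quartile scaling). Neighbouring genes of one family thus had log2 fold changes of different sign.

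The 593 genes tested on chromosome 10 had a median log2 fold change of −0.35. With the median of each chromosome subtracted, IFIT3 stood at 0.01, IFIT2 at 0.35 and IFIT1 at 0.59, and IFIT1 then passed (limma adjusted p = 0.0405). All 3 genes overlap LIPA as annotated on the opposite strand, which was at 20.3 to 22.2 FPKM, and its reads there cannot be told apart from theirs without strand. On chromosome 21, which holds IFNAR1, IFNAR2 and IFNGR2, the median was 0.0925, and IFNAR1 after subtraction was at −0.59.

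**Figure D3:**
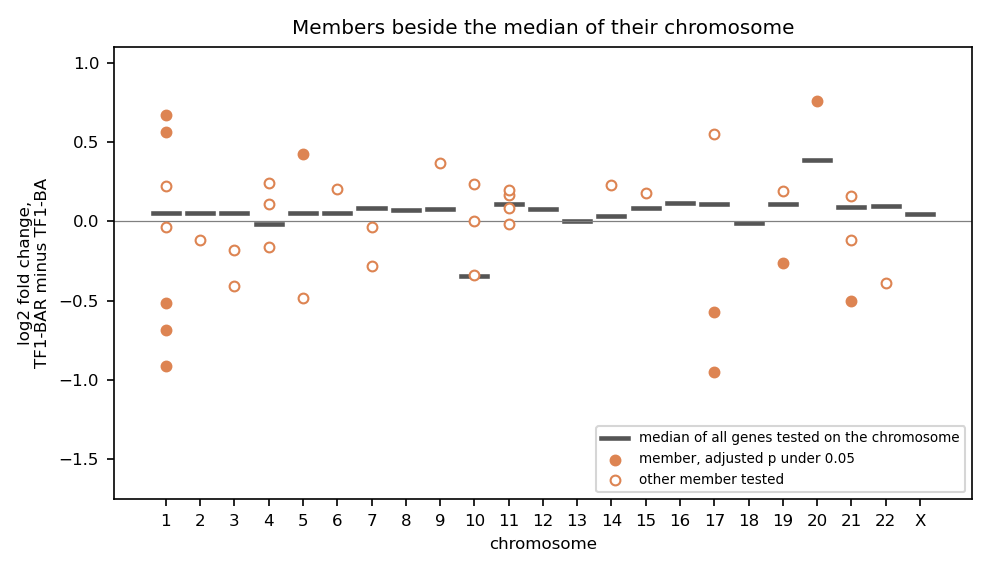
Circles show the log2 fold change (TF1-BAR minus TF1-BA) of the 38 genes tested by chromosome, filled where the limma adjusted p is under 0.05, and grey bars show the median of all genes tested on that chromosome. The bars of chromosome 10 (−0.3463) and chromosome 20 (0.3901) stand apart from the others, IFIT3 lies at the bar of chromosome 10, and MAVS lies above that of chromosome 20.

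The IFITM genes on chromosome 11 were among the most abundant of the list, and none passed. IFITM3 was at 276 and 275 FPKM in TF1-BA and at 325 and 307 FPKM in TF1-BAR libraries. Its libraries did not overlap, but the log2 fold change was only 0.20 and the limma adjusted p was 0.0561, which fell under 0.05 in 2 of 15 alternatives. IFITM1 was at 52.0 to 64.6 FPKM and IFITM2 at 50.6 to 55.3 FPKM, with log2 fold changes of 0.16 and 0.09, the latter −0.02 after the subtraction of chromosome medians. The annotated span of IFITM2 includes IFITM1 on the same strand and the 3 genes are near copies, so that their separate levels are uncertain.

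Other effectors differed in direction. IFI35, which encodes a partner of the STAT-interacting protein NMI (ENSG00000068079, chr17:43006725-43014456), was lower in TF1-BAR cells. It was at 3.82 and 3.64 FPKM in TF1-BA and at 1.64 and 1.73 FPKM in TF1-BAR libraries. The replicates were close and the lines far apart (3.73 ± 0.129 and 1.69 ± 0.0666 FPKM, SD, n = 2), with a log2 fold change of −0.95 (SE 0.0983, limma adjusted p = 0.00701, range 0.000601 to 0.0739 over 15 alternatives). On the smaller pseudocount of 0.1 FPKM the log2 fold change of IFI35 was −1.10, past both thresholds.

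IFI6, a mitochondrial and endoplasmic reticulum protein with antiviral and antiapoptotic roles (ENSG00000126709, chr1:27666061-27672218), was lower in TF1-BAR cells. Its levels were 22.2 and 21.9 FPKM in TF1-BA and 14.5 and 16 FPKM in TF1-BAR libraries. The lines did not overlap, and the log2 fold change was −0.52 (SE 0.0768, limma adjusted p = 0.0130, range 0.00502 to 0.110 over 15 alternatives).

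BST2 (ENSG00000130303, chr19:17402939-17405648), the second most abundant gene of the list, was also lower, with 231 and 221 FPKM in TF1-BA and 184 and 193 FPKM in TF1-BAR libraries. The log2 fold change was the smallest of the 11 that passed on log2(FPKM + 0.5), at −0.26 (SE 0.0578, limma adjusted p = 0.0324). It was past the threshold in 8 of 15 alternatives, with a range of 0.0150 to 0.242. IFITM3 and BST2, the most abundant genes of the list, thus had log2 fold changes of opposite sign, of which that of BST2 passed.

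IFI44, a cytoplasmic protein of the antiviral response (ENSG00000137965, chr1:78649796-78664078), was higher in TF1-BAR cells. It was at 3.83 and 3.36 FPKM in TF1-BA and at 5.98 and 6.04 FPKM in TF1-BAR libraries. All TF1-BAR values were above the TF1-BA values, with means of 3.6 ± 0.333 and 6.01 ± 0.0473 FPKM (SD, n = 2). The log2 fold change was 0.67 (SE 0.0951, limma adjusted p = 0.0121, range 0.00204 to 0.0993 over 15 alternatives).

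XAF1, a proapoptotic antagonist of XIAP, was at 0.436 and 0.401 FPKM in TF1-BA and at 0.806 and 0.884 FPKM in TF1-BAR libraries. The libraries did not overlap, yet the limma adjusted p was 0.0818 at a log2 fold change of 0.55. It passed in 2 of 14 alternatives, eBayes without the trend (limma adjusted p = 0.0271) and voom on its 41 to 94 recovered fragments (log2 fold change 1.00, adjusted p = 0.00265). ISG20, an RNA exonuclease, was at 1.43 to 1.99 FPKM with overlapping lines.

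The remaining tested genes did not pass. PARP9 and PARP14, ADP-ribosyltransferases of the interferon response, had log2 fold changes of −0.41 and −0.18 (limma adjusted p of 0.0912 and 0.198). PARP9 passed in 2 of 15 alternatives, and DTX3L overlaps PARP9 on the opposite strand. SAMD9 and SAMD9L, adjacent genes whose products restrain translation and poxviruses, had log2 fold changes of −0.04 (0.01 in TPM) and −0.28. Over all 27 tested genes that did not pass, the limma adjusted p ran from 0.0561 to 0.991.

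The 10 genes below the level for testing included classic interferon-induced effectors, and all 4 listed oligoadenylate synthetase (OAS) genes were among them. OAS enzymes detect double-stranded RNA and activate RNase L. OAS1 had 0 and 0 fragments in TF1-BA and 10 and 10 fragments in TF1-BAR libraries, where a count of 0 allows up to 3 fragments. OAS2 had 2 and 0 fragments in TF1-BA and 6 and 4 in TF1-BAR libraries.

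OAS3 had 8 and 20 fragments in TF1-BA and 50 and 61 in TF1-BAR libraries, and the related OASL, which enhances RIG-I signalling, had 22 and 18 against 54 and 58. In 6 of the 10 genes below the level for testing, these 4 among them, both TF1-BAR libraries lay above both TF1-BA libraries, against 20.6% of all 15334 genes that were above 0 and below that level. In a limma fit without the filter none of the 10 passed, and the lowest adjusted p was that of OASL, 0.0791. Fragment numbers cover counting error only. Those of OAS3 are the smallest that the FPKM allow. Those of OAS1 and MX1 rest on a choice among several possible lengths, and smaller numbers would fit their FPKM as well.

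MX1, a GTPase that blocks influenza virus, had 2 and 4 fragments in TF1-BA and 2 and 0 in TF1-BAR libraries, and so was at or near the floor of 3 fragments in all of them. RSAD2, which encodes the antiviral enzyme viperin, had 21 to 28 fragments in every library. IFI44L, next to IFI44 on chromosome 1, had 1 and 2 fragments in TF1-BA and 11 and 16 in TF1-BAR libraries. IFI27 had 9 and 5 against 16 and 21 fragments. Among these 10 genes, IFIT5 was the one with both TF1-BAR libraries below both TF1-BA libraries (1 of 10, against 11.3% of all genes below that level), with 36 and 32 fragments in TF1-BA and 12 and 14 in TF1-BAR libraries, though it did not pass without the filter (limma adjusted p = 0.0996).

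**Figure D4:**
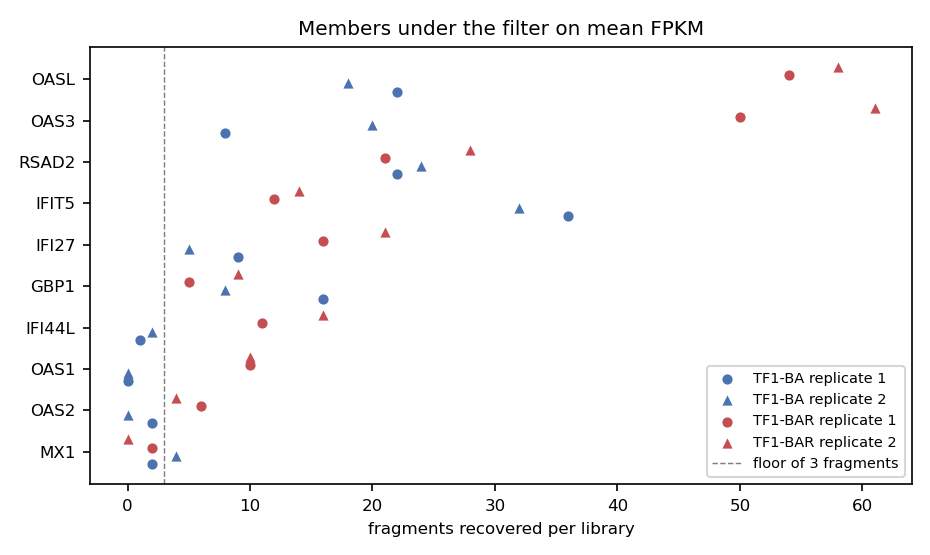
Fragments recovered per library on a linear axis are shown for the 10 genes below a mean of 0.5 FPKM (blue, TF1-BA; red, TF1-BAR; circles, replicate 1; triangles, replicate 2; dashed line, the floor of 3 fragments). OASL and OAS3 reach 58 and 61 fragments in TF1-BAR libraries, and MX1 has at most 4 in any library.

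Other genes of the pathway were taken from a list of 112, of which 94 were in the table and 74 were tested. Of these, 12 (16.2%, background 16.3%) were higher and 17 (23.0%, background 10.5%) lower in TF1-BAR cells by limma, with a median log2 fold change of −0.008. With the chromosome medians subtracted, 6 were higher and 19 lower (background 11.3% and 11.9%), and SAMHD1 and HELZ2 on chromosome 20, chosen after their values were seen, were then at 0.00 and 0.06. Without either TF1-BA library, 0 of the 74 passed in either direction by limma, and without TF1-BAR replicate 2, 0 were higher and 6 lower, where 3.52% and 3.1% of all genes were. All 8 interferon genes in the table (IFNA2, IFNA5, IFNB1, IFNK, IFNW1, IFNL1, IFNL2 and IFNL3) were below the level for testing, with 0 to 2 fragments per library.

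Among the signalling genes downstream of the receptors, JAK1 had a log2 fold change of −0.03 and STAT2 of 0.20, and neither passed. TYK2, the kinase bound to IFNAR1, was higher in TF1-BAR cells, with 24.6 and 25.6 FPKM in TF1-BA and 30.1 and 34.3 FPKM in TF1-BAR libraries (log2 fold change 0.35, limma adjusted p = 0.0398, range 0.00489 to 0.215 over 15 alternatives). TYK2 did not pass with the chromosome medians subtracted (0.24, limma adjusted p = 0.105). JAK2, the kinase bound to IFNGR2 and to the GM-CSF receptor, was lower, at 15.4 and 13.2 against 8.75 and 7.40 FPKM (−0.79, limma adjusted p = 0.0139). SOCS3, a feedback inhibitor of cytokine receptors, was higher at a log2 fold change of 0.83 (limma adjusted p = 0.0129).

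MB21D1, which encodes cGAS, was at 7.46 and 7.81 FPKM in TF1-BA and at 5.59 and 5.52 FPKM in TF1-BAR libraries. It was thus lower (log2 fold change −0.43, limma adjusted p = 0.0206), whereas its downstream adaptor gene TMEM173 was higher. AIM2, a DNA sensor of the inflammasome, was higher, at 0.469 and 0.451 against 1.2 and 1.49 FPKM (0.94, limma adjusted p = 0.0212). IKBKE, a kinase that activates IRF3, was higher at a log2 fold change of 0.50 (limma adjusted p = 0.0289), and EIF2AK2, which encodes the RNA-activated kinase PKR, had 0.32 with a limma adjusted p of 0.0511.

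In this wider list 2 genes passed both thresholds by limma, both downward, against 1.69% of all genes in that direction. By limma voom, these 2 and GBP3 did so downward and AIM2 and BATF2 upward, against 2.47% and 4.94% of all genes. NLRC5, the transactivator of MHC class I genes, was at 3.7 and 3.47 FPKM in TF1-BA and at 0.999 and 1.14 FPKM in TF1-BAR libraries (log2 fold change −1.38, limma adjusted p = 0.00514). LGALS9, which encodes galectin-9, was at 4.99 and 5.07 against 1.78 and 1.74 FPKM (−1.29, limma adjusted p = 0.00409). Next in size among the lower genes, with JAK2, were PSMB9, a subunit of the immunoproteasome, at −0.79 (limma adjusted p = 0.00953) and EPSTI1 at −0.78 (limma adjusted p = 0.00783). BATF2, a transcription factor induced by interferon gamma, and CMPK2, a mitochondrial nucleotide kinase that overlaps RSAD2 on the opposite strand, were higher, at 0.88 and 0.78 (limma adjusted p of 0.0157 and 0.0123).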

How the data were processed

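RNA of 2 TF1-BA and 2 TF1-BAR libraries was measured. The authors removed adaptors and poor reads, mapped paired reads to GRCh38 with TopHat2 2.0.13, ran Cufflinks and Cuffdiff 2.2.0 with default parameters, and tested with DESeq2. The annotation release is not given in the sources used here. The authors deposited FPKM per gene and library, without log transformation. Samples were grouped by their labels. The lines were compared by limma 3.58.1 (R 4.3.3; lmFit, eBayes with a trend) on log2(FPKM + 0.5), for 15519 genes whose mean reached 0.5 FPKM, with Benjamini-Hochberg adjustment and a threshold of 0.05. The script was tested on simulated data.

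Fragments were recovered as FPKM times length and library size. Of 30853 genes above 0, 14113 were whole at the GENCODE 44 exon length, 16739 at a fitted length and 1 was not, within 1.5 units of the last FPKM digit. Where several lengths were possible, the shortest was used if it gave enough fragments or if no GENCODE 44 length was known. Otherwise the length closest to a set fraction of the GENCODE 44 length was used, which can give more fragments than the shortest. At GENCODE 44 lengths, 100 of 300 genes gave whole numbers with the sizes found and 0 with deliberately wrong ones, a check not made for fitted lengths.

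The members and lists were chosen with earlier results of these data known. Genes were named by rule: all members, a set of signalling genes that includes STAT2, JAK1, TYK2, cGAS and PKR, and the 5 largest changes in each direction among other pathway genes that passed. One gene of that set is not reported here. Alternatives were other pseudocounts, filters, scalings and variance settings, a replicate block, subtraction of chromosome medians, voom on fragments, and leaving out each library.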

Additional observations from a re-analysis of the deposited data

How the results depend on the processing

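Of the members, 4 were higher and 7 lower at an adjusted p under 0.05, and most alternatives kept both counts within 1.5 times. The lower count was 2 without the filter and 11 under quantile normalization, where 1.93% and 12.5% of all genes were lower, and leaving out one library gave 0 to 5 higher and 0 to 4 lower. With either TF1-BA library left out, the lone library is assumed to vary like the TF1-BAR pair, and 0 members passed. Past both thresholds, voom gave 1 higher and 1 lower, against 4.94% and 2.47% of all genes. A pseudocount of 0.1 FPKM, quantile normalization and subtraction of chromosome medians gave 1 lower each. Of all genes, 2.33%, 2.18% and 1.8% were lower past both thresholds in these settings. The lower count of members also changed in a fit without one library. For the other pathway genes, no filter gave 0 higher and 10 lower, where 2.76% and 1.93% of all genes were. Both eBayes without the trend and subtraction of chromosome medians gave 6 higher (12.4% and 11.3% of all genes). Leaving out one library gave 0 to 11 higher and 0 to 17 lower (of all genes, 0.161% to 11.8% and 0.11% to 8.69%). The cause was not tested.

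With the replicate number as a block, 9 of the 11 called members kept their call. Of all 15519 genes, 3969 passed with the block, against 4167 in the main fit. DHX58 and GBP2 lost their call (adjusted p = 0.0643 and 0.0508 by limma). Same-numbered libraries deviated together with a correlation of 0.0646 over 15519 genes, and no source pairs them.

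The direction turned for 6 members that did not pass: IRF7 (0.0462 in TPM, 0.0454 without TF1-BA replicate 1, −0.1627 to 0.1308 over all single omissions), IFI16 (0.0263 in TPM), IFIT2 (−0.0187 by upper quartile, −0.1091 by quantile, −0.0081 without TF1-BA replicate 2, −0.093 to 0.0975 over all), SAMD9 (0.0097 in TPM, −0.1036 to 0.0322 over all), and, after subtraction of chromosome medians, IFIT3 (−0.33 to 0.0121) and IFITM2 (−0.022). The median of all genes was 0.1252 in TPM and −0.0038 by quantile normalization, and that of the members 0.051 and −0.1. Members under 30 fragments are limited by depth.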
